A study of Mus musculus with 32 samples.

Results

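The quadriceps, the extensor of the knee on the front of the thigh, was compared with the gastrocnemius, the superficial calf muscle, in wild-type mice. The members were chosen by their labels for muscle and genotype: 4 wild-type quadriceps and 4 wild-type gastrocnemius libraries, 8 of the 32 libraries of the series. The series sequenced total RNA from these muscles and from the tibialis, all of males no older than 3 months. Its mice were wild type or carried the M743T change on both alleles of Gne, the gene of the key enzyme of sialic acid synthesis, and knock-in animals are labelled either healthy or sick. The same muscle difference was measured in 7 libraries of healthy knock-in mice, 4 of quadriceps and 3 of gastrocnemius, and the levels in 4 wild-type tibialis libraries are given where they place a gene. The labels do not say which libraries came from the same mouse or whether animals were pooled, so a p-value reflects only how far the libraries of a group spread, which may be technical in part. Differences are quadriceps over gastrocnemius on the log2 scale, with a negative value for a lower level in quadriceps. CPM are read counts brought to one library size.

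Limb muscles share a contractile programme, but they differ in fibre type, in the nerve and connective tissue they carry, and in the position where they formed. Hox genes lie in 4 clusters and give cells a position along the body and the limb: genes with higher numbers are expressed towards the distal end, and adult connective tissue and muscle cells keep part of that code. Slow fibres use their own set of myosin and troponin genes, which the heart shares in part. Myelin around the motor and sensory axons of a muscle is made by Schwann cells, which transcribe a small set of myelin genes at very high rates. In bulk RNA, fewer cells of a type and less RNA per cell cannot be told apart.

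The total count was 13837042 to 30139230 in the gastrocnemius libraries and 11547783 to 42588233 in the quadriceps libraries, and 14648 genes were tested. Myh4, the fastest myosin heavy chain, Acta1, skeletal actin, and Atp2a1, the calcium pump of fast fibres, took the most counts in the 8 libraries. All 3 are genes of skeletal muscle. Mitochondrial genome genes took 8.12% ± 1.81 of the counts in quadriceps and 10.1% ± 1.82 in gastrocnemius (SD, n = 4 each). The difference of -2.00 percentage points gave p = 0.2 in a two-sided exact permutation test, where the smallest possible p is 0.0286. Gne itself was read at 9.14, 9.70, 9.72 and 8.46 CPM in the quadriceps libraries and 10.4, 11.4, 10.1 and 9.36 CPM in the gastrocnemius libraries, ranges that overlap (log2 fold change -0.14 ± 0.12, SE; limma adjusted p = 0.704). Gne was lower in quadriceps in all 4 pairs of libraries with the same replicate number, and a limma fit that pairs them gave -0.15 ± 0.13 with an adjusted p of 0.621.

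At a limma adjusted p under 0.05, 69 genes differed between the muscles, 0.471% of those tested. Of these, 9 were higher in quadriceps (0.0614%) and 60 were lower (0.410%), while the median log2 fold change of all tested genes was -0.015. Myelin genes of Schwann cells stand out by number among the 60 lower genes, Hox genes and other positional factors stand on both sides, and the largest fold change belongs to Myl2, a light chain of slow myosin. In all 69 genes the CPM ranges of the 2 muscles did not overlap, but they were called from these same values, so this is no separate support. Over all tested genes, 3.28% had ranges that did not overlap with quadriceps lower and 2.23% with quadriceps higher. With 1 library left out, 19 to 133 genes passed, and 17 of the 69 genes passed in all 8 such fits. The count was 21, 21 and 19 without quadriceps replicate 1, 2 or 3, 39 and 44 without gastrocnemius replicate 2 or 3, and 133 without gastrocnemius replicate 4. A fit that pairs libraries by their replicate number called 237 genes, 52 higher (0.355%) and 185 lower (1.26%), among them all 69. The labels do not state that pairing, which was read from the same counts, and every paired p-value given below depends on it.

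**Figure D1:**
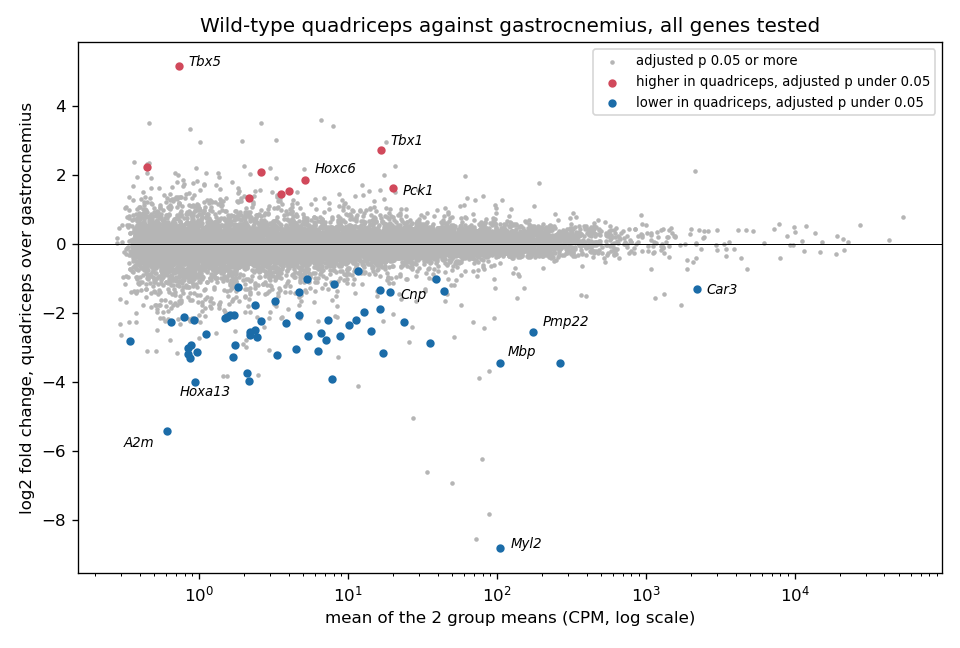
Each point is 1 of the 14648 genes tested, placed by its mean level in CPM (horizontal axis, log scale) and by its log2 fold change between wild-type quadriceps and gastrocnemius (vertical axis). The 9 red genes are higher and the 60 blue genes lower in quadriceps at a limma adjusted p under 0.05, and the 5 grey points below -6 are the slow fibre genes Myl3, Myh7, Tnnc1, Tnni1 and Tnnt1, which did not pass.

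The stretches just before the transcription starts of 4 genes are shown because they stand for the 2 groups of genes described next: Prx and Mal, which encode proteins of the myelin sheath, and Hoxa13 and Hoxa11, the Hox genes called lower in quadriceps. Each line gives the 200 bases before the start, 5′ to 3′ on the strand of the gene, from RefSeq on GRCm38.p6. Capitals mark a match to any of 4 short motifs searched on both strands: ACAAAG (bound by SOX factors such as Sox10), TATAAA (the TATA box), CAGCTG (an E-box of myogenic factors) and TTTATG (bound by posterior HOX proteins).
Prx: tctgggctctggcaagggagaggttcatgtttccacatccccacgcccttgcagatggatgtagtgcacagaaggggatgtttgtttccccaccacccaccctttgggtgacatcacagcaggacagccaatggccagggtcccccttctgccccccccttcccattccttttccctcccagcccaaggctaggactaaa
Mal: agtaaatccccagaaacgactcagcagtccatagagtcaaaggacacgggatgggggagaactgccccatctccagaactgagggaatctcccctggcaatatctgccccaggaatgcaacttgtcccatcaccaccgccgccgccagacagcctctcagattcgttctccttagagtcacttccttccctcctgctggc
Hoxa13: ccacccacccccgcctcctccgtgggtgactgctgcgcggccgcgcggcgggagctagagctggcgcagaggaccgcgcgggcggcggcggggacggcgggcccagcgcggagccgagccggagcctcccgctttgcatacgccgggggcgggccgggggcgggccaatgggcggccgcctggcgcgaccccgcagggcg
Hoxa11: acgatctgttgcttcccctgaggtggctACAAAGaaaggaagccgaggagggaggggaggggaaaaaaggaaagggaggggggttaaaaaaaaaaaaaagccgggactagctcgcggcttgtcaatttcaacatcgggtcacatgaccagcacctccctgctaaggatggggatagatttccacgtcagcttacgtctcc
The Prx stretch lies at chr7:27499124-27499323 on the plus strand, and that of Mal at chr2:127656696-127656895 on the minus strand. The Hoxa13 stretch lies at chr6:52260881-52261080 and that of Hoxa11 at chr6:52245811-52246010, both on the minus strand. Guanine and cytosine made up 58% of the Prx stretch, 56% of that of Mal, 82.5% of that of Hoxa13 and 52% of that of Hoxa11, against a median of 53% over 32851 such stretches of the table. The 1 match among the 4 stretches is an ACAAAG before Hoxa11, beginning 172 bases before the start. Of the 69 genes, 45 had an entry in the table and 34 had one whose start lay within 50 bases of the start in the GENCODE annotation. ACAAAG was found in 5 of those 34 stretches (14.7%) and in 13.3% of all 32851. TATAAA was found in 2 of the 34 (5.88%) against 9.96%, CAGCTG in 2 (5.88%) against 10.9%, and TTTATG in 1 (2.94%) against 8.51%. The 32851 stretches were not restricted to tested genes or to starts near a GENCODE start, and these differences were not tested. A match is a run of letters and not a shown binding site.

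Myelin genes were lower in quadriceps, from 2.68 times for Cnp to 11.2 times for Mbp in mean CPM among the called markers described from the list of Schwann cell and nerve markers. Of 16 markers of Schwann cells and nerve, 13 passed the count filter, and 10 of these 13 were lower in quadriceps and none higher, against 0.410% of all tested genes lower. The median log2 fold change of the 13 was -2.58. The summed level of 11 of the tested markers (Mbp, Prx, Pmp22, Mal, Cnp, Ncmap, S100b, Sox10, Mag, Egr2 and Gfra3) was 614, 814, 794 and 365 CPM in gastrocnemius replicates 1 to 4 and 94.5, 89.8, 89.7 and 105 CPM in the quadriceps replicates. The lowest gastrocnemius library, replicate 4, therefore still held several times the level of any quadriceps library, and the quadriceps libraries lay close together.

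Mbp, myelin basic protein, which seals the cytoplasmic faces of the membrane, was read at 180, 245, 236 and 106 CPM in gastrocnemius and 19.03, 12.9, 16.5 and 19.8 CPM in quadriceps (log2 fold change -3.45 ± 0.27, SE; adjusted p = 0.00178). Replicate 4 was the lowest gastrocnemius library for Mbp, and still several times above the highest quadriceps library.

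Pmp22, a membrane protein of compact myelin whose dosage causes inherited neuropathy in humans, held 292, 375, 367 and 164 CPM in gastrocnemius and 46.1, 48.6, 43.5 and 50.7 CPM in quadriceps. Its 4 quadriceps values were almost equal, and its mean was 6.34 times lower there (log2 fold change -2.58 ± 0.24, adjusted p = 0.0019). Pmp22 lies on GRCm38 chromosome 11, 63128982 to 63159547, on the plus strand. Prx, periaxin, which anchors the Schwann cell membrane to the basal lamina and whose upstream stretch is shown above, held 57.6, 75.5, 79.4 and 38.7 CPM in gastrocnemius against 8.71, 6.23, 8.59 and 10.9 CPM in quadriceps (log2 fold change -2.88 ± 0.26, adjusted p = 0.00178). Mal, a lipid raft protein of myelin, held 27.6, 43.7, 36.0 and 16.1 CPM against 3.82, 2.93, 2.53 and 5.20 CPM (log2 fold change -3.18 ± 0.35, adjusted p = 0.00397). Cnp, an enzyme of the myelin cytoplasm that other cells express too, showed the smallest difference of the called markers, with 21.3 to 31.9 CPM in gastrocnemius and 9.73 to 11.5 CPM in quadriceps (log2 fold change -1.40 ± 0.15, adjusted p = 0.00371).

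**Figure D2:**
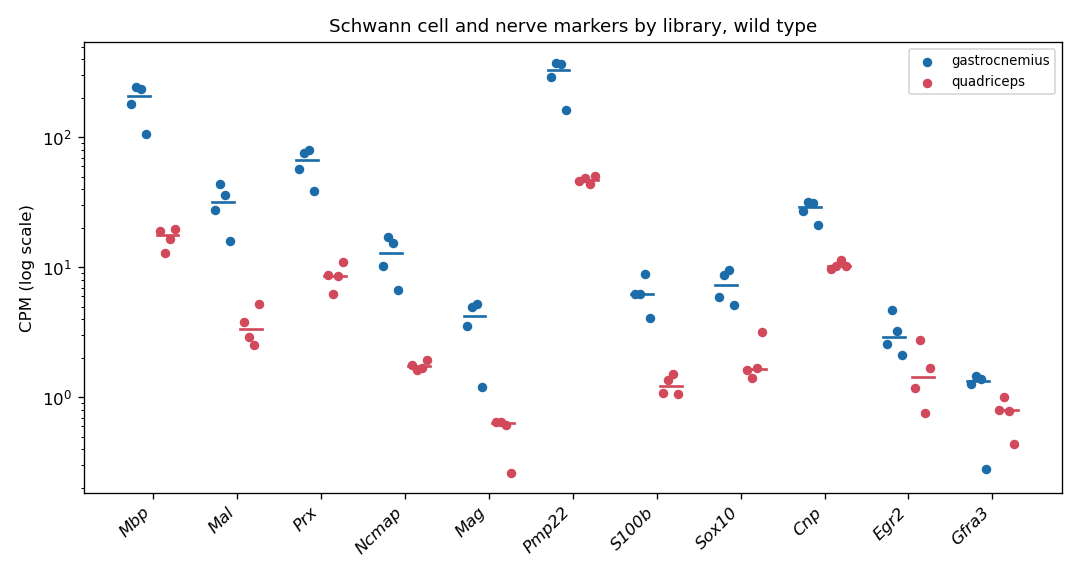
Levels in CPM (vertical axis, log scale) of 11 tested Schwann cell and nerve markers in each wild-type library, with gastrocnemius in blue, quadriceps in red and a bar at the median of each group of 4. The groups do not overlap in 9 of the 11 genes, and Egr2 and Gfra3 at the right are the exceptions. Over all tested genes, 3.28% had ranges that did not overlap with quadriceps lower.

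Other called markers, which fall outside the rule for named genes and were chosen after their values were seen, included Ncmap, S100b and Sox10. Sox10, the transcription factor that Schwann cells need at every stage, was at 5.17 to 9.58 CPM in gastrocnemius and 1.41 to 3.17 CPM in quadriceps (log2 fold change -2.06 ± 0.29, adjusted p = 0.0158). S100b, a calcium-binding marker of Schwann cells, was at 4.11 to 8.95 CPM and 1.06 to 1.5 CPM (log2 fold change -2.30 ± 0.28, adjusted p = 0.00708). Mag, a myelin adhesion molecule, did not overlap between the muscles but missed the threshold (log2 fold change -2.64 ± 0.53, adjusted p = 0.0748), and it passed with the replicate pairing (adjusted p = 0.00128). The 3 markers that were not tested, Nefl, Nefm and Nefh, encode the neurofilaments of the axon, whose messenger RNA is held mostly in the cell bodies outside the muscle. They had 4, 16 and 57 reads over the 8 libraries. Without quadriceps replicate 1, 2 or 3, and also in a fit of all 32 libraries, 6 markers passed in place of 10. Mbp, Prx, Pmp22, Cnp and Mal passed in all 8 fits with 1 library left out, S100b in 5 and Sox10 in 4. In the fit of all 32 libraries Mbp, Prx, Pmp22 and Mal passed, and Cnp did not (limma adjusted p = 0.0757).

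The 60 lower genes include 50 outside that list, and those described next are examples for which no list was drawn up. Ugt8a, which makes the galactolipids of myelin, held 11.4, 21.1, 17.8 and 7.37 CPM in gastrocnemius and 0.914, 0.818, 0.689 and 1.76 CPM in quadriceps (log2 fold change -3.92 ± 0.46, adjusted p = 0.00532). Gjb1, connexin 32, the gap junction protein of Schwann cells, was at 0.851 to 1.89 CPM and 0.0564 to 0.528 CPM (log2 fold change -3.32 ± 0.58, adjusted p = 0.0426). Hepacam, a glial adhesion molecule, differed by -3.20 ± 0.49 (adjusted p = 0.0258), Ddn, dendrin, known from neurons and kidney podocytes, by -3.30 ± 0.55 (adjusted p = 0.0387) and Dusp15, a dual-specificity phosphatase, by -3.23 ± 0.33 (adjusted p = 0.00252). Dusp15 passed in all 8 fits with 1 library left out, Ugt8a in 6 (not without quadriceps replicate 2 or 3), Hepacam in 3, Gjb1 in 2 and Ddn in 1. Cldn19, a claudin of Schwann cells, Fa2h, which hydroxylates myelin fatty acids, Drp2, a partner of periaxin, and Dhh, a hedgehog ligand made by Schwann cells, were picked after their values were seen. Their log2 fold changes were -2.68, -3.05, -2.28 and -2.26, with adjusted p = 0.00346, 0.00997, 0.0278 and 0.0229 in limma, and they passed in 8, 5, 3 and 3 of the fits with 1 library left out. The part of nerve content in any of these differences was not tested.

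Wild-type tibialis, the muscle on the front of the shank, held 99.0 to 203 CPM of the 11 summed markers, a range that meets the top of the quadriceps range and lies below every gastrocnemius library. Its Mbp level was 18.0 to 53.0 CPM. These tibialis values are on totals scaled over the 12 wild-type libraries, and no test between tibialis and the other muscles was made here.

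Of the 39 Hox genes, 26 passed the count filter, and 2 were lower and 2 higher in quadriceps, against 0.410% and 0.0614% of all tested genes. The 13 others had 0 to 63 reads over the 8 libraries. Most of the 26 differed little: the median log2 fold change was 0.15, and 14 values were positive and 12 negative. The called genes were Hoxa11 and Hoxa13, lower in quadriceps, and Hoxc6 and Hoxc8, higher in quadriceps.

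Hoxa13, the last gene of its cluster and a marker of the most distal limb, held 4.51, 3.64, 5.27 and 2.84 CPM in gastrocnemius and 0.215, 0.367, 0.148 and 0.352 CPM in quadriceps. The lowest gastrocnemius value was several times the highest quadriceps value, and the difference was -3.98 ± 0.38 (SE; adjusted p = 0.00252). Hoxa13 lies on chromosome 6, 52257694 to 52260880, minus strand, and its counts summed to 427 in gastrocnemius and 27 in quadriceps. Hoxa11, which patterns the middle segment of the limb, held 4.89, 3.05, 4.46 and 2.84 CPM in gastrocnemius and 0.376, 0.621, 0.0738 and 0.440 CPM in quadriceps (log2 fold change -3.75 ± 0.54, adjusted p = 0.0193). It did not pass without gastrocnemius replicate 3 or quadriceps replicate 1 (adjusted p up to 0.0756). Hoxa11os, the antisense RNA that overlaps Hoxa11 on the opposite strand, was at 0.955 to 2.86 CPM and 0 to 0.282 CPM (log2 fold change -4.02 ± 0.69, adjusted p = 0.0396). With 1 library left out it passed only without gastrocnemius replicate 4, with an adjusted p up to 0.239 otherwise. The strand setting of the counting is not given in the sources used here, so reads of these overlapping genes may not be told apart.

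Hoxc6, which patterns the thoracic part of the trunk, held 10.5, 6.83, 7.75 and 7.22 CPM in quadriceps and 2.1, 1.77, 2.39 and 2.55 CPM in gastrocnemius. Every quadriceps library was above every gastrocnemius library, with a log2 fold change of 1.85 ± 0.20 (adjusted p = 0.00371). Hoxc8 held 5.27, 4.54, 4.99 and 1.94 CPM in quadriceps and 1.38, 0.909, 1.02 and 0.638 CPM in gastrocnemius (log2 fold change 2.07 ± 0.36, adjusted p = 0.0407). Quadriceps replicate 4 was well below the other 3 for Hoxc8, and with 1 library left out the call held only without that replicate, with an adjusted p up to 0.191 in the other fits. A Hoxc5 gene model spans Hoxc6, Hoxc8, Hoxc9 and Hoxc10 on the same strand, so reads in shared exons are uncertain.

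**Figure D3:**
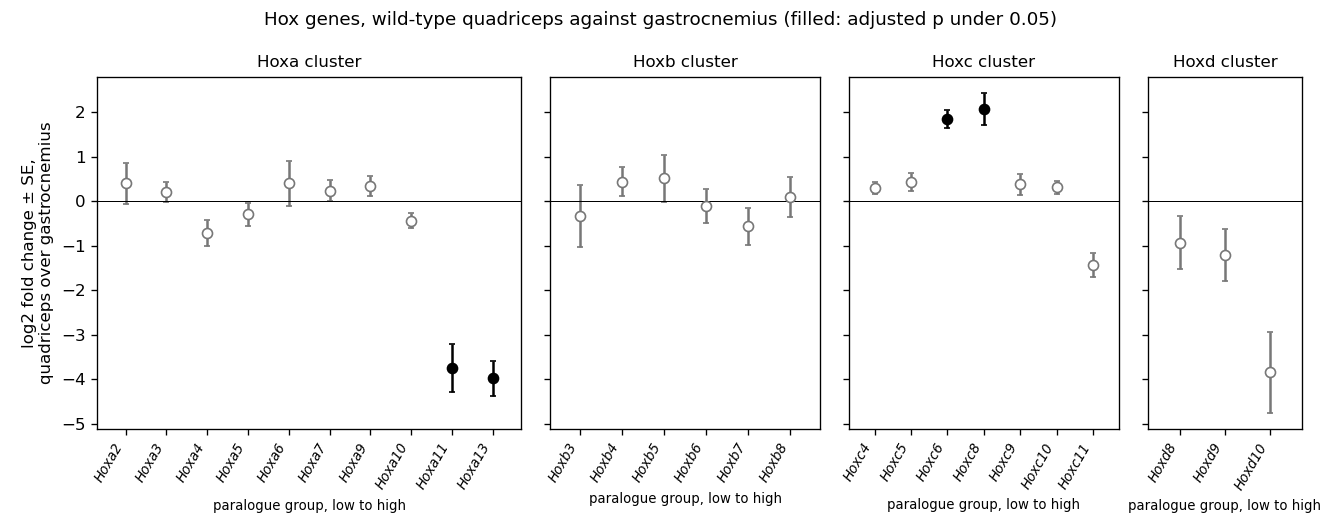
Log2 fold change ± SE between wild-type quadriceps and gastrocnemius (vertical axis) for the 26 Hox genes tested, in the order of their numbers within each of the 4 clusters (horizontal axes). Filled circles are the 4 genes with a limma adjusted p under 0.05, and Hoxc11 and Hoxd10, at the high ends of their clusters, are the lowest of the open circles.

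The other genes of the Hoxc cluster did not pass. Hoxc10, the Hox gene with the most counts, held 77.5, 69.6, 60.8 and 91.1 CPM in gastrocnemius and 95.1, 81.7, 96.9 and 96.5 CPM in quadriceps, ranges that overlap (log2 fold change 0.32 ± 0.14, adjusted p = 0.485). Hoxc9 was at 0.38 ± 0.24 and Hoxc4 at 0.31 ± 0.14. Hoxc11 held 8.95, 7.23, 4.43 and 5.46 CPM in gastrocnemius and 2.69, 2.54, 2.26 and 1.67 CPM in quadriceps, with no overlap, and missed the threshold (log2 fold change -1.43 ± 0.27, adjusted p = 0.0588). It passed with the replicate pairing (adjusted p = 0.00754). Hotair, a long noncoding RNA transcribed from the opposite strand between Hoxc11 and Hoxc12, was lower in quadriceps (0.748 to 1.48 CPM against 0.0881 to 0.376 CPM; log2 fold change -2.26 ± 0.40, adjusted p = 0.0439), a call that none of the 8 fits with 1 library left out kept.

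The 3 tested genes of the Hoxd cluster split the gastrocnemius libraries. Hoxd10 held 2.58, 3.91, 0.659 and 3.90 CPM in gastrocnemius and 0.215, 0.169, 0.172 and 0 CPM in quadriceps. The groups did not overlap, and the difference of -3.84 ± 0.91 gave an adjusted p of 0.130, or 0.00939 with the replicate pairing. Hoxd9 held 14.0, 14.2, 2.87 and 15.9 CPM in gastrocnemius against 3.10 to 5.13 CPM in quadriceps, and Hoxd8 held 35.2, 39.0, 6.50 and 45.9 CPM against 10.2 to 17.9 CPM. Gastrocnemius replicate 3 was several times below the other 3 for all 3 genes, and for Hoxd8 and Hoxd9 it lay below the quadriceps range. Without that library 5 Hox genes passed as lower and 1 as higher. The tested genes of the Hoxa cluster other than Hoxa11 and Hoxa13, and those of the Hoxb cluster, had log2 fold changes between -0.71 and 0.52 and none passed.

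The tibialis, which lies in the same segment of the leg as the gastrocnemius, held 1.81 to 2.83 CPM of Hoxa13 and 1.81 to 2.22 CPM of Hoxa11, between the ranges of the other 2 muscles. Its Hoxc8 level of 0.573 to 0.870 CPM lay near that of the gastrocnemius, and its Hoxd10 level of 0.0396 to 0.166 CPM near that of the quadriceps.

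Among 56 other limb and muscle patterning factors, 44 were tested, and 2 were higher and 1 lower in quadriceps, against 0.0614% and 0.410% of all tested genes. Tbx5, a T-box factor best known as a determinant of forelimb and heart, had 171 reads in the quadriceps libraries and 3 in the gastrocnemius libraries. Its levels were 1.45, 2.20, 1.45 and 0.617 CPM in quadriceps and 0.0689, 0, 0.0299 and 0 CPM in gastrocnemius. Relative to the scaled library sizes, the ratio of the summed counts was 53.0, with a 95% interval of 17.8 to 259 that covers counting error only (limma adjusted p = 0.00327). Tbx5 was called in all 8 fits with 1 library left out. It lies on chromosome 5, 119832668 to 119885219, plus strand.

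Tbx1, a T-box factor of head muscle formation, held 28.0, 24.6, 29.3 and 30.7 CPM in quadriceps and 4.65, 2.05, 11.7 and 1.77 CPM in gastrocnemius (log2 fold change 2.71 ± 0.45, adjusted p = 0.0384). The quadriceps libraries were nearly equal, while the gastrocnemius libraries spread widely with replicate 3 the highest. With 1 library left out, Tbx1 passed only without gastrocnemius replicate 3 or 4, and the adjusted p was otherwise up to 0.150. En1, a homeobox gene of ventral limb patterning, was lower in quadriceps, with 2.85, 2.14, 2.04 and 3.70 CPM against 8.06, 6.50, 5.0 and 7.16 CPM (log2 fold change -1.41 ± 0.23, adjusted p = 0.0365), and tibialis held 0.582 to 1.11 CPM. En1 did not pass without gastrocnemius replicate 2 or quadriceps replicate 1, 2 or 3 (adjusted p up to 0.214). With the replicate pairing, which called 0.355% of all tested genes higher and 1.26% lower, 3 factors were higher and 5 lower, the added ones being Emx2 (higher) and Eya2, Barx2, Zic1 and Mkx (lower), which were named after their values were seen.

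All 18 genes of the slow fibre list had lower estimates in quadriceps, with a median log2 fold change of -2.30, but only Myl2 passed the test. In 9 of the 18 the ranges of the muscles did not overlap, against 3.28% of all tested genes. With the replicate pairing 7 passed as lower, against 1.26% of all tested genes: Myl2, Tnni1, Atp2a2, Myh7, Myl3, Tnnt1 and Tnnc1, which encode light and heavy chains of slow myosin, slow troponin subunits and the slow calcium pump. Without gastrocnemius replicate 1 the count was 6. Without gastrocnemius replicate 2 or quadriceps replicate 1, 2 or 3 it was 0.

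Myl2, the regulatory light chain of slow and cardiac myosin, held 559, 93.3, 130 and 56.8 CPM in gastrocnemius and 0.968, 0.141, 0.0984 and 1.5 CPM in quadriceps. The quadriceps libraries had 44 reads of it in all and the gastrocnemius libraries 23432. Its log2 fold change was -8.83 ± 1.32 (adjusted p = 0.0285), the most negative of all 69 genes. Myl2 lies on chromosome 5, 122100951 to 122113472, plus strand. Myh7, the slow myosin heavy chain, held 532, 67.3, 17.3 and 86.3 CPM in gastrocnemius and 0.914, 0.254, 0.197 and 0.617 CPM in quadriceps (log2 fold change -7.85 ± 1.72, adjusted p = 0.109, or 6.11e-05 with the replicate pairing). Gastrocnemius replicate 1 was several times above the other 3 for both genes, and every gastrocnemius library was well above every quadriceps library. In tibialis both genes ranged from near 0 to over 55 CPM, with 0.0832 to 55.5 CPM for Myl2 and 0.166 to 58.6 CPM for Myh7.

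No fast fibre gene passed among 17 tested, and their median log2 fold change was 0.13. Myh2, the slowest of the adult fast myosin heavy chains, held 2558, 1841, 5115 and 1064 CPM in gastrocnemius and 551, 294, 440 and 1894 CPM in quadriceps, where replicate 4 stood apart (log2 fold change -1.78 ± 0.63, adjusted p = 0.352). Myh1, the intermediate one, was at -0.73 ± 0.37 (adjusted p = 0.543). Myh4, the fastest, held 35986, 49549.5, 18815 and 58631 CPM in gastrocnemius and 62647, 76768, 64795 and 57791 CPM in quadriceps, ranges that overlap through gastrocnemius replicate 4 and quadriceps replicate 4 (log2 fold change 0.77 ± 0.33, adjusted p = 0.453). Atp2a1 was at 0.53 ± 0.19 (adjusted p = 0.363) and Acta1 at 0.11 ± 0.22 (adjusted p = 0.874).

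**Figure D4:**
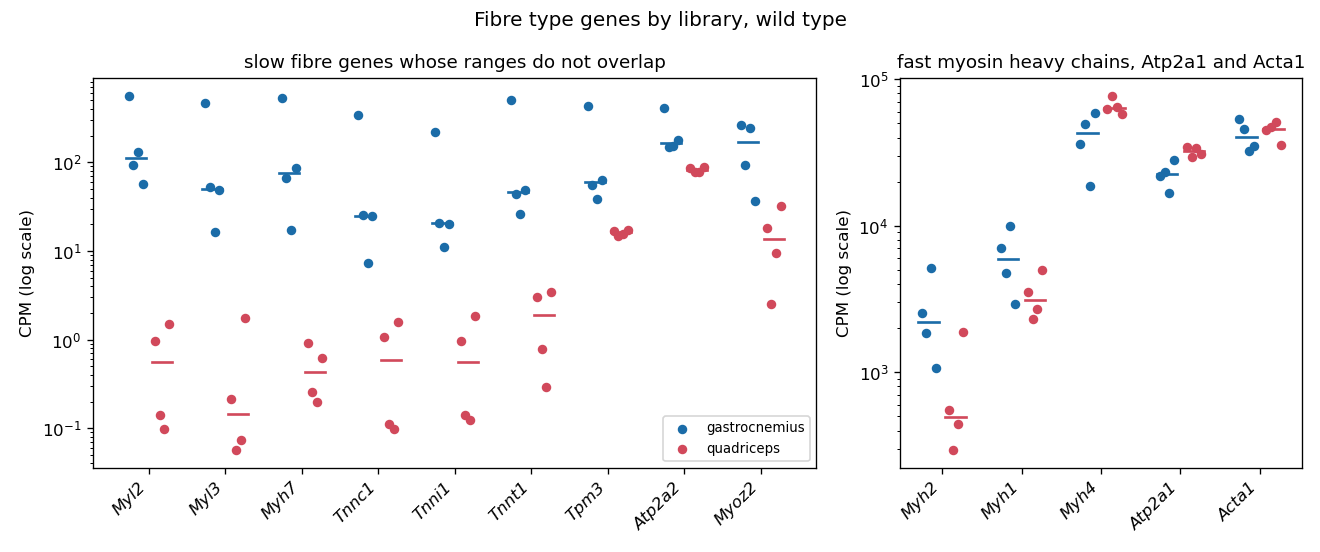
Levels in CPM (vertical axes, log scale) in each wild-type library, gastrocnemius in blue and quadriceps in red, with a bar at the median of each group of 4. The left panel holds the 9 slow fibre genes whose groups do not overlap, with gastrocnemius replicate 1 at the top of each, and the right panel the fast myosin heavy chains Myh2, Myh1 and Myh4 with Atp2a1 and Acta1, of which only Atp2a1 does not overlap.

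Pck1, phosphoenolpyruvate carboxykinase, an enzyme of gluconeogenesis and of glycerol synthesis in fat cells, was higher in quadriceps, with 21.3, 28.5, 36.9 and 32.3 CPM against 8.81, 14.2, 6.79 and 10.8 CPM (log2 fold change 1.61 ± 0.24, adjusted p = 0.0239). Lgals12, a galectin of fat cells, held 5.05, 5.27, 5.24 and 4.49 CPM in quadriceps and 1.62, 3.05, 1.26 and 2.48 CPM in gastrocnemius (log2 fold change 1.43 ± 0.25, adjusted p = 0.0479). Of 16 adipocyte markers, all tested, none passed in either direction, and their median log2 fold change was 0.58. Their summed level was 1071 to 1292 CPM in quadriceps and 844 to 959 CPM in gastrocnemius, with no overlap. With the replicate pairing 3 of them passed as higher in limma, against 0.355% of all tested genes: Adipoq (adjusted p = 0.0467), Cidec (0.0310) and Plin1 (0.0225). With 1 library left out, Pck1 did not pass without gastrocnemius replicate 1 or 3 or quadriceps replicate 2 or 3, and Lgals12 passed only without gastrocnemius replicate 2 or 4. The part of fat cells in the levels of Pck1 and Lgals12 was not tested. Pck1 was also listed as a kidney tubule marker, and the 11 other markers of that list had 1 to 49 reads over the 8 libraries. The other higher genes were Il1rl2, a receptor of the interleukin 36 cytokines (log2 fold change 1.52 ± 0.26, adjusted p = 0.0395), Tmem8, a membrane protein (1.32 ± 0.21, adjusted p = 0.0285), and Pde11a, a cyclic nucleotide phosphodiesterase with a mean under 1 CPM that was named after its values were seen (2.21, adjusted p = 0.0386). With 1 library left out, Tmem8 passed in 3 of 8 fits (not without gastrocnemius replicate 2 or 3 or quadriceps replicate 1, 2 or 3), Il1rl2 in 2 and Pde11a in 2.

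Some lower genes belong to none of the groups above. A2m, alpha-2-macroglobulin, a protease inhibitor, had 1 read in the quadriceps libraries and 124 in the gastrocnemius libraries, or 0.826, 1.45, 1.68 and 0.851 CPM in gastrocnemius. The ratio of summed counts, relative to the scaled library sizes, was 133 with a 95% interval of 23.5 to 5312 (counting error only; limma adjusted p = 0.00178). Aldh1a2, which makes retinoic acid, a positional signal of the embryonic limb, held 10.7, 9.82, 8.05 and 15.5 CPM in gastrocnemius and 0.860, 1.69, 0.664 and 3.08 CPM in quadriceps (log2 fold change -3.12 ± 0.39, adjusted p = 0.00777). It missed the threshold narrowly without quadriceps replicate 1 or 3 (adjusted p up to 0.0523). Msln, mesothelin, was at 1.31 to 2.63 CPM and 0.148 to 0.264 CPM (log2 fold change -3.15 ± 0.39, adjusted p = 0.00708), and did not pass without quadriceps replicate 1, 2 or 3. Car3, the carbonic anhydrase of slow muscle and fat, was the lower gene with the most counts, at 2372 to 4012 CPM in gastrocnemius and 989 to 1448 CPM in quadriceps (log2 fold change -1.32 ± 0.20, adjusted p = 0.0238), and was named after its values were seen. It passed in 4 of the 8 fits with 1 library left out.

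Of the 37 gene lists compared, 31 had no called member. In the list of nuclear oxidative phosphorylation genes all 42 estimates were negative with a median of -0.25, and in that of cytosolic ribosomal proteins all 30 were negative with a median of -0.28. Endothelial markers had 15 negative estimates of 16 (median -0.20), smooth muscle and pericyte markers 12 of 14 (-0.43), tendon markers 11 of 13 (-0.64) and neuromuscular junction genes 14 of 18 (-0.20). Macrophage markers had 16 positive estimates of 20 (0.22), and glycolysis and glycogen genes were centred near 0 (-0.014 over 32). Over all tested genes, 47.7% of the estimates were positive. The genes of a list are not independent replicates, and a shift of a whole list was not tested. With the replicate pairing 3 cartilage and bone markers, 2 tendon markers and 1 gene each of the erythrocyte, extracellular matrix and dystrophin complex lists passed as lower, against 1.26% of all tested genes.

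In healthy knock-in mice, 5 of 14531 genes passed in the same muscle comparison (0.0344%), and 690 had an unadjusted p under 0.05. The differences are between knock-in libraries, but their SE and p come from a fit that also holds the 8 wild-type libraries. Filter, scaling and spread are thus shared, so a call in both states is not an independent repeat. Of the 5 genes called in the knock-in, 4 are among the 69 of the wild type and have the same sign: Hoxa13, Hoxa11, Hoxc6 and Tbx1. The fifth was Clu, clusterin (log2 fold change 1.12 ± 0.18, adjusted p = 0.0410), at 0.34 in the wild type, which was named after its values were seen. Of the 68 wild-type genes with a knock-in value, 63 had the same sign there: all 9 higher genes and 54 of the lower ones, while 5 lower ones had the opposite sign. The share of all tested genes with the same sign in both states is not given here, and the 68 genes are not independent replicates. These genes were chosen by their wild-type difference, so the sizes of the differences in the 2 states cannot be compared from them.

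The positional genes gave these values in the knock-in. Hoxa13 held 0.24 to 0.38 CPM in the knock-in quadriceps libraries and 4.70, 4.70 and 3.23 CPM in the knock-in gastrocnemius libraries (log2 fold change -3.50 ± 0.41, adjusted p = 0.00680). Hoxa11 differed by -4.99 ± 0.76 (adjusted p = 0.0410), Hoxc6 by 1.67 ± 0.24 (adjusted p = 0.0305) and Tbx1 by 5.06 ± 0.79 (adjusted p = 0.0410). Tbx5 was at 2.36, 1.74, 1.76 and 0.99 CPM in knock-in quadriceps and at 0, 0 and 0.27 CPM in knock-in gastrocnemius, Hoxc8 differed by 2.09 ± 0.41 and Aldh1a2 by -2.67 ± 0.45, with adjusted p = 0.0623, 0.151 and 0.0623 in limma.

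For the myelin gene Mbp the ranges of the muscles overlapped in the knock-in. Mbp held 63.7, 127 and 6.12 CPM in the 3 knock-in gastrocnemius libraries and 9.33, 20.7, 18.9 and 17.6 CPM in the knock-in quadriceps libraries, so that replicate 3 of the gastrocnemius lay below all 4 quadriceps libraries (log2 fold change -1.15 ± 0.79, adjusted p = 0.998). The 11 summed Schwann cell and nerve markers ran from 48.0 to 456 CPM in knock-in gastrocnemius and from 53.8 to 130 CPM in knock-in quadriceps. Myl2 differed by -3.45 ± 2.33 (adjusted p = 0.998) with 1.84, 313 and 9.69 CPM in knock-in gastrocnemius and 0.24 to 7.0 CPM in knock-in quadriceps.

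**Figure D5:**
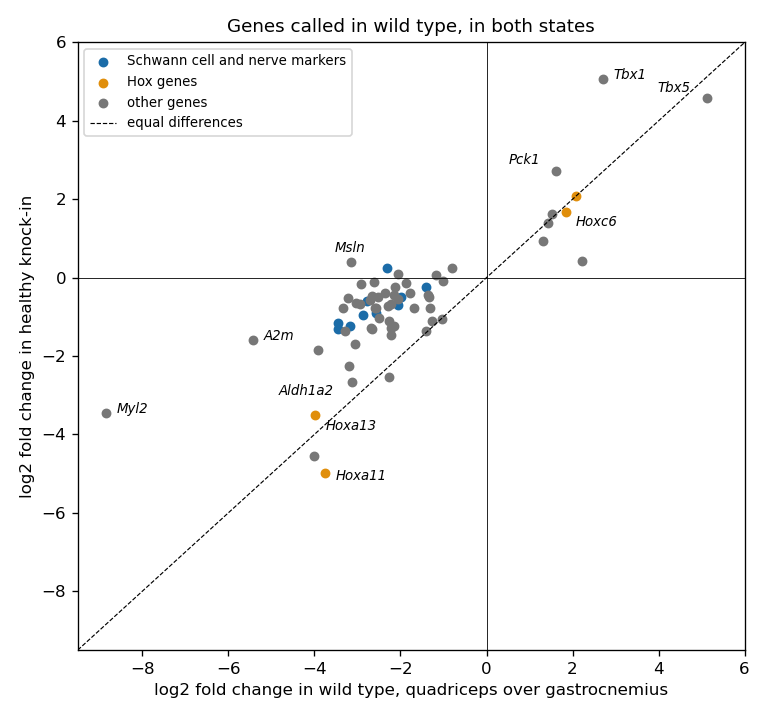
Log2 fold change between quadriceps and gastrocnemius in wild type (horizontal axis) against that in healthy knock-in mice (vertical axis) for the 68 genes called in wild type that have a knock-in value. Of the 68 genes, 63 have the same sign in both states, and since all were chosen by the wild-type value, distance from the dashed line of equal differences is no measure of a change.

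The difference between the states was tested directly. The interaction of muscle and state in limma called 0 of 14531 genes (0%), with a smallest adjusted p of 0.709 and 1010 genes at an unadjusted p under 0.05. For Mbp the interaction was 2.28 (adjusted p = 0.709), for Pmp22 1.67 (0.709), for Myl2 5.45 (0.728) and for Hoxa13 0.48 (0.844), where a positive value means a less negative difference in the knock-in. The adjusted interaction p of the 10 called Schwann cell and nerve markers was 0.709 to 0.719.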

How the data were processed

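The 8 libraries were placed in their groups by the labels for muscle and genotype, and the numbers of replicates come from the labels. The submitters' processing notes list the build GRCm38 with DESeq2 1.22.1, HTSeq 0.6.0, TopHat2 2.1.1 and cutadapt 1.18. No setting, strand option or annotation release was given in sources used here. The deposited table holds, per the file headers, raw whole-number counts per gene and library and the same counts divided by 1 factor per library by the authors. Only the raw counts were analysed. Of 54838 genes, 6252 hold no value and are not analysed here. Because of the mark these genes carry, the columns were not treated as a plain count table, and limma-voom took the place of a test built for counts.

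Analysis used R 4.3.3 with limma 3.58.1. A gene was tested if its CPM reached 0.386 (the equivalent of 10 counts at the median depth) in at least 4 libraries, with 15 or more counts in sum. Scaling was by trimmed mean of M values (trims 0.3 and 0.05), the offset before the logarithm was 0.5 counts, and group means, voom weights and robust moderation gave log2 fold changes, SE and Benjamini-Hochberg adjusted p over all genes tested. The knock-in comparison and the interaction both used the 15 wild-type and healthy knock-in libraries of both muscles. The steps were tested on simulated counts with the same relative spread for every gene and library and no pairing. That test does not cover the uneven spread of the libraries here. Every pair of replicates differed by more than sampling noise (chi-square per gene 13.3 to 194). GENCODE vM21, with 54809 of the identifiers, gave symbols and coordinates.

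Deviations from the group means of libraries with the same replicate number correlated at 0.266, 0.674, 0.368 and 0.444 across 9505 genes with a mean of at least 5 CPM, and those of other pairs at -0.408 to 0.0823. Deviations within a group sum to 0, so positive values for equal numbers push those of the other pairs down. The numbers were taken to pair the libraries in an alternative fit. This pairing comes from the data, since the labels do not say that a number marks 1 mouse, and the fit without it stayed the main one. Genes are not independent replicates.

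Named genes are Gne, every tested Hox gene that the text describes, the 15 highest and 15 lowest log2 fold changes (or fewer) among those with an adjusted p under 0.05, ranges that do not overlap and a mean of at least 1 CPM in the higher group, up to 6 called members of each of 37 gene lists, 4 myosin heavy chain genes and the 3 genes with the most counts. The members and the lists were chosen with earlier results of these data known. Some genes that the rule or the lists would name are not reported here, and counts over a list include them. Alternatives were other scalings, filters and models, a fit of the 12 wild-type or of all 32 libraries, the replicate pairing, and each library left out in turn.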

Additional observations from a re-analysis of the deposited data

Results flagged for a closer look

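In 116 groups of 4 libraries, covering 57 named genes and the mitochondrial share, 9 held a library far from the other 3 by Dixon's test at the 95% level, and chance alone flags about 1 in 20 groups. Gastrocnemius replicate 1 held 558.9 CPM of Myl2 and 532.2 CPM of Myh7, where the other gastrocnemius libraries held at most 130.1 and 86.3 CPM. Quadriceps replicate 4 held 1893.9 CPM of Myh2 against at most 550.7 CPM in the others, and 10.8% of its counts were mitochondrial against at most 7.38%. Its Hoxc4 level of 4.84 CPM stood apart from 4.6 to 4.63 CPM, a small difference.

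Gastrocnemius replicate 3 held 2.87 CPM of Hoxd9 against 14.0 to 15.9 CPM in the others, and gastrocnemius replicate 4 held 0.354 CPM of Hoxb6 against 0.999 to 1.02 CPM. Quadriceps replicate 2 held 81.7 CPM of Hoxc10 against 95.1 to 96.9 CPM. Quadriceps replicate 3 held 0.0246 CPM of A2m, which is 1 read, where the other quadriceps libraries held none.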

How the results depend on the processing

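No result changed sign where it was called. Median-of-ratios scaling, plain library totals and leaving out mitochondrial genome genes gave 68, 74 and 69 genes. No filter on low counts gave 123 (23 higher, 100 lower), a filter at 50 counts 4 higher genes, library quality weights 453 (75 and 378), the 12 wild-type libraries 158 (22 and 136) with 68 of the 69 genes kept, all 32 libraries 14 higher genes with 50 of the 69 kept, and the replicate block (pairing by number) 237 (52 and 185). Leaving out 1 library gave 19 to 133 genes, 2 to 20 higher and 17 to 120 lower. Schwann cell and nerve markers numbered 6 in the fit of all 32 libraries and 6 to 11 with 1 library left out. Lower Hox genes numbered 4 with limma-trend, quality weights, all 32 libraries or the replicate block and 1 to 5 with 1 library left out, and higher ones 1 with the filter at 50 counts and 1 to 2 with 1 left out. Slow fibre genes numbered 0 with no filter or all 32 libraries, 3 with limma-trend, 8 with quality weights, 2 with the 12 libraries, 7 with the replicate block and 0 to 6 with 1 left out. The interaction called 1 gene with no filter, Kcnj13 (adjusted p = 0.0351; 42 reads in wild-type gastrocnemius and 0 to 2 in each other group), which was named after its values were seen, and 0 in its other fits. Of the 57 genes that the naming rule covers, 3 passed with the replicate block and not in the main fit, and 54 kept their label. Most other genes that passed only with the replicate block are not named here. The causes were not tested. Genes below about 1 CPM rest on few reads in the shallowest of the 8 wild-type libraries, which held 11547783 counts, and in the shallowest knock-in library, which held 7685164.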
